A study of Homo sapiens with 27 samples.

Results

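The nuclear pore, importin and exportin genes of U937 cells were followed after treatment with matrine, an alkaloid of the plant Sophora flavescens. U937 is a human acute myeloid leukaemia cell line. All groups were grown as cell line cultures in RPMI medium with 10% fetal bovine serum, penicillin and streptomycin. RNA-seq libraries came from control cells (n = 3), from cells exposed to matrine during 30 min (n = 3) and from cells exposed during 24 h (n = 3), at a dose of 0.8 mg/ml at both times. The study's methods name ddH2O as the vehicle. Beyond matrine and these additions to the medium, no agent or genetic change is named for these groups. The genes were chosen by symbol (NUP, XPO, IPO, KPNA or KPNB and TNPO with a number, and XPOT) among protein-coding genes, with a mean FPKM over 1 across the 9 libraries. FPKM scales the reads of a gene by its length and by the depth of the library, so that levels of genes of different length can be set side by side. Of 47 protein-coding genes with such a symbol, 43 passed, out of 11899 genes of any kind that passed the same filter. These were 21 nucleoporins and 22 importins and exportins. The 4 that did not pass were KPNA5 (mean FPKM 0.913), NUP210L (0.021), NUP62CL (0.0033) and KPNA7, which was listed at 0 in every library. The lowest genes inside the filter were IPO4 (2.03) and NUP35 (5.15), and KPNA5 was the highest outside it.

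The nuclear pore complex is a ring-shaped channel of nucleoporins through the nuclear envelope. Importins carry proteins into the nucleus and exportins carry proteins and RNA out, and the small GTPase Ran, loaded with GTP in the nucleus, makes importins release and exportins bind their cargo. Fast-growing cells rely on this traffic for ribosomal proteins and ribosomal subunits, which cross the pore in both directions. Importin alpha proteins are adaptors that bind a nuclear localization signal in the cargo and hand it to importin beta 1.

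Total counts per library lay between 17314931 and 21930018. Between 4.99% and 5.28% of the reads counted fell in the top 10 genes of a library, and 3.59% to 3.92% in mitochondrial genes. Of 10 myeloid marker genes 8 had a mean FPKM over 1, and their summed FPKM was 600.8 to 613.8 in control, 598.2 to 618.3 at 30 min and 807.8 to 823.5 at 24 h. The markers went both ways: mean FPKM from control to 24 h went from 113.6 to 223.0 in ITGB2, from 47.8 to 161.6 in FCER1G and from 13.2 to 57.7 in TYROBP, and from 292.3 to 243.6 in LYZ, from 67.6 to 56.0 in SPI1 and from 41.0 to 32.9 in CEBPA. Of 8 erythroid markers 1, KLF1, had a mean FPKM over 1, with 2.4 to 4.12 across the 9 libraries, and HBG1, HBA2 and HBE1 were at 0 in all 9. T cell and fibroblast or epithelial markers were under an FPKM of 1 in all cases, and the B cell markers summed to between 2.56 and 4.14 with MS4A1 at 0. The part of the different myeloid marker levels at 24 h in the results given here was not tested. The labels do not say that the libraries came from separate cultures, so p-values measure the spread between these libraries, which may be technical.

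In control cells the median FPKM of the 43 genes was 19.5, beside 6.96 over all genes tested. NUP210, a membrane-anchored nucleoporin, was highest at 159.7 ± 8.98 (SD, n = 3). Next came the importin alpha KPNA2 at 113.2 ± 1.72, importin beta 1 (KPNB1) at 80.7 ± 4.23 and the importin IPO5 at 74.4 ± 2.39. XPO1, the main exportin for proteins with a nuclear export signal, was at 49.3 ± 3.29, the channel nucleoporin NUP62 at 46.3 ± 0.589 and the actin exportin XPO6 at 44.8 ± 0.902. KPNB1 and IPO5 overlapped between control libraries, as did XPO1 and NUP62. The lowest was IPO4, which carries histones and ribosomal proteins, at 2.5 ± 0.161.

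RefSeq promoter windows, from 250 bases before to 50 bases after a transcript start (GRCh38.p14), were found for 39 of the 43 genes, with 50 windows in all. KPNA4, KPNB1, NUP43 and XPO7 had no entry. The E-box CACGTG, which reads the same on both strands and is bound by MYC and other factors, was in 7 of 50 windows (14%), beside 7.26% of 35116 windows of all genes. Unlike the 43 genes, the 35116 windows were not filtered by FPKM or gene type. The motif shares given here and below are therefore not set against genes chosen in the same way. The 7 genes are shown because MYC was the study's subject and because they include import receptors, nucleoporins and the exportin XPO1. Each line gives 30 bases around the E-box on the gene's strand, all before the RefSeq start, with the E-box in capitals. The IPO4, TNPO2 and XPO1 stretches lie inside the gene as GENCODE 44 draws it, whose start is further upstream, and the other 4 lie outside their gene. XPO1 also had a window at a RefSeq start further upstream, chr2:61538307-61538606, which held no E-box.
IPO4, chr14:24188828-24188857, minus strand: tgtcagaacctcCACGTGctgtccctcccc
TNPO2, chr19:12723939-12723968, minus strand: ggcggctttctgCACGTGtttctcagccca
IPO7, chr11:9384502-9384531, plus strand: agctcaggcagcCACGTGggctgcggactg
KPNA3, chr13:49792731-49792760, minus strand: accgcccccggtCACGTGtcgccagcctcc
NUP188, chr9:128947610-128947639, plus strand: ccgcggcaacgtCACGTGacgaaatccccg
NUP50, chr22:45163739-45163768, plus strand: cgttgccggcccCACGTGagccgacgcccc
XPO1, chr2:61537114-61537143, minus strand: gtccgcctgcatCACGTGgccccctcggtg

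Counted from the transcript start, with -1 as the base before it, the E-box began at -29 in IPO4, -24 in TNPO2, -44 in XPO1, -66 in KPNA3, -77 in NUP188, -138 in IPO7 and -174 in NUP50. A further E-box of NUP188 began at -30. The variant letters CACGCG, searched on both strands, were in 9 of 50 windows (18%) beside 11.4% of all windows. The palindromic NRF1 motif was in 3 windows (6%), those of NUP107, NUP50 and NUP62, beside 1.24% of all. The NF-Y letters CCAAT were in 23 windows (46%) beside 34.6% of all. Matches of different motifs could share bases, and a match describes the letters and not a bound site.

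The early comparison set the 30 min libraries against control. None of the 43 genes was down-regulated or up-regulated at 30 min by edgeR's quasi-likelihood test. A gene was called where its Benjamini-Hochberg adjusted p was below 0.05 and it changed by 1.5-fold or more. Over all genes tested 0.529% were called lower and 0.118% higher. At an unadjusted p below 0.05 there were 2 of the 43 genes, KPNA2 and NUP58, beside 11.6% of all genes tested, and DESeq2 and limma also called 0 at 1.5-fold. The log2 fold changes ran from -0.24 in NUP58 to 0.18 in KPNA2 with a median of 0.02, beside 0.01 over all genes tested.

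KPNA2 FPKM was 114.7, 111.3 and 113.6 in control and 126.1, 123.5 and 126.4 at 30 min, so all 3 treated libraries were above all 3 control libraries. The log2 fold change was 0.18 (SE 0.049, edgeR adjusted p 0.0749). DESeq2 gave an adjusted p of 0.0161 for the same gene, and the other alternatives gave adjusted p values from 0.0534 to 0.265. NUP58, a channel nucleoporin, had FPKM values of 7.56, 6.85 and 7.55 in control and 6.11, 6.84 and 5.30 at 30 min. Its highest treated library was just under its lowest control library (log2 fold change -0.24, SE 0.079, edgeR adjusted p 0.18). The libraries at 30 min lay below those of control in 2 genes (NUP35 and NUP58) and above them in 1 (KPNA2), beside 8.96% and 4.90% of all genes tested.

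Against control, 17 of the 43 genes (39.5%) were down-regulated at 24 h and none was up-regulated (0 by edgeR and by every other tool run), beside 11.2% of all genes tested called lower and 14.7% called higher. By the edgeR adjusted p alone 37 were lower and 0 higher, beside 31.7% and 31.6% of all genes tested. At an unadjusted p below 0.05 there were 38, all of them lower, beside 33.3% of all genes tested lower at that p. The log2 fold change was below 0 in 42 of 43 genes, and the median was -0.50 beside 0.01 over all genes tested. The exception was IPO13, which works in both import and export, with a log2 fold change of 0.12 (SE 0.077, edgeR adjusted p 0.18), and with a filter of mean FPKM over 5 it was the 1 gene higher by the adjusted p alone. Libraries at 24 h did not overlap with control and lay below in 36 genes and above in 1 (IPO13), beside 31.5% and 38.2% of all genes tested. With 3 libraries a group, an exact permutation test of a single gene cannot give a p below 0.1.

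**Figure D1:**
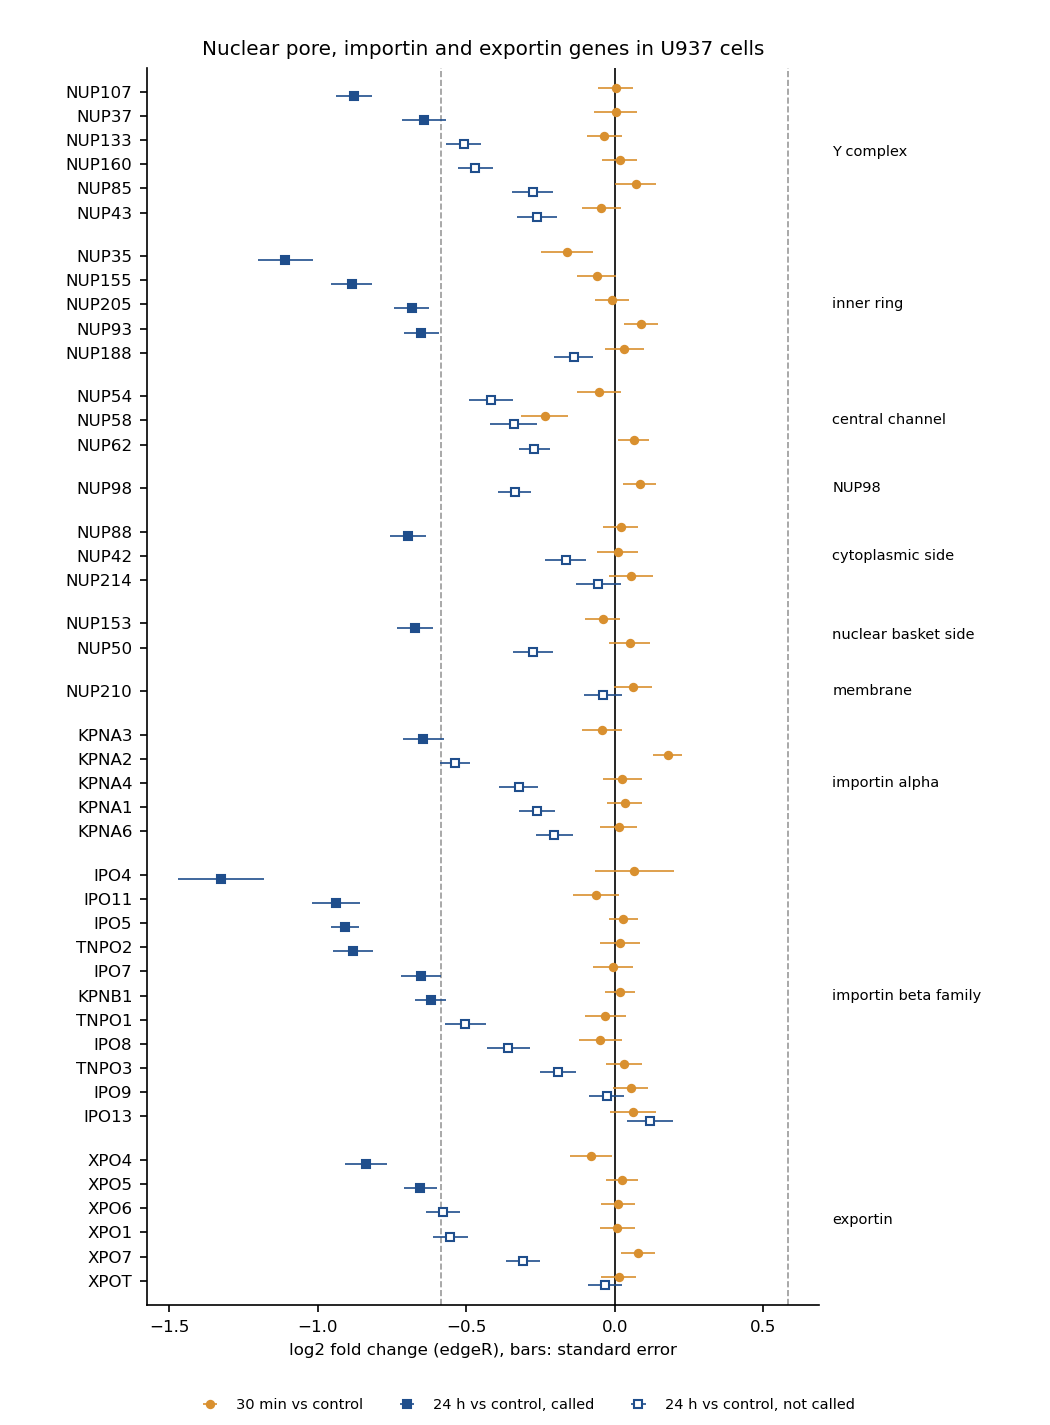
Log2 fold change of each of the 43 genes against control at 30 min (orange circles) and 24 h (blue squares, filled where called), with bars of 1 standard error and genes grouped by role. Dashed lines mark the 1.5-fold threshold. All 30 min points lie between -0.24 and 0.18, while 42 of the 43 points at 24 h lie below 0.

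The 24 h values formed a continuous run across the 1.5-fold line. Within 0.1 log2 units of the line there were 13 genes, 8 of them called and 5 not. The called and uncalled genes near the line therefore differed little in size. The summed FPKM of the 43 genes was 1177 to 1268 in control, 1202 to 1257 at 30 min and 932.3 to 954.5 at 24 h. Their share of all counts was 0.826% to 0.898% in control, 0.839% to 0.885% at 30 min and 0.662% to 0.676% at 24 h. In every 24 h library the median of the 43 genes was between -0.51 and -0.48 log2 units from the control mean, while it was within 0.063 of it in the 6 other libraries. In a bulk sample, fewer cells that express a gene and less RNA per cell cannot be told apart.

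**Figure D2:**
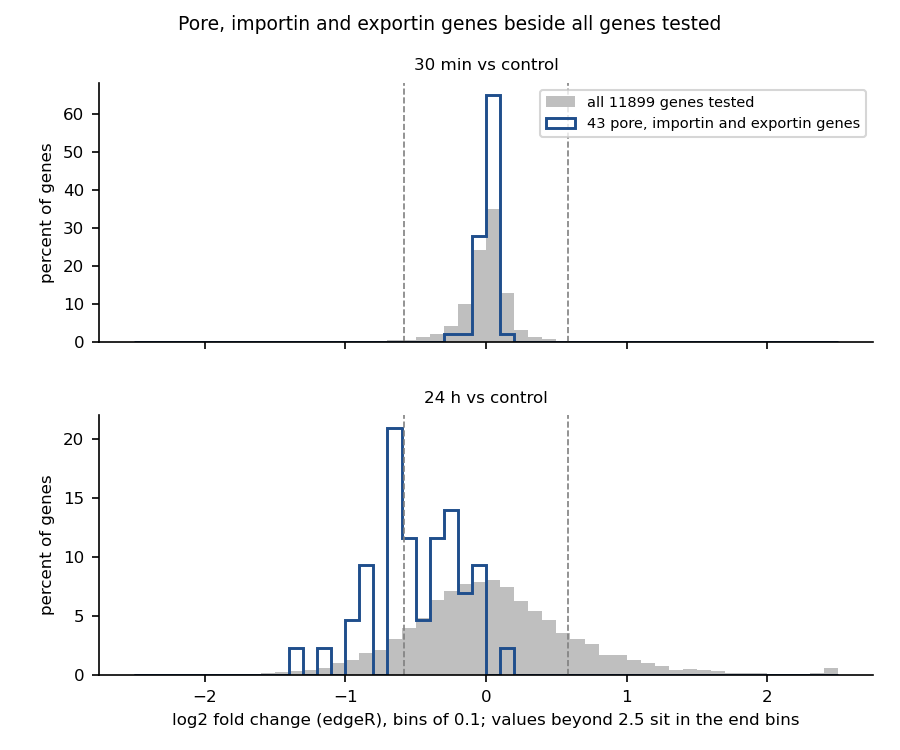
Share of genes in each bin of log2 fold change for the 43 genes (blue outline) and for all 11899 genes tested (grey), at 30 min (top) and 24 h (bottom). At 24 h the outline is centred at -0.50 and the grey at 0.01.

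**Figure D3:**
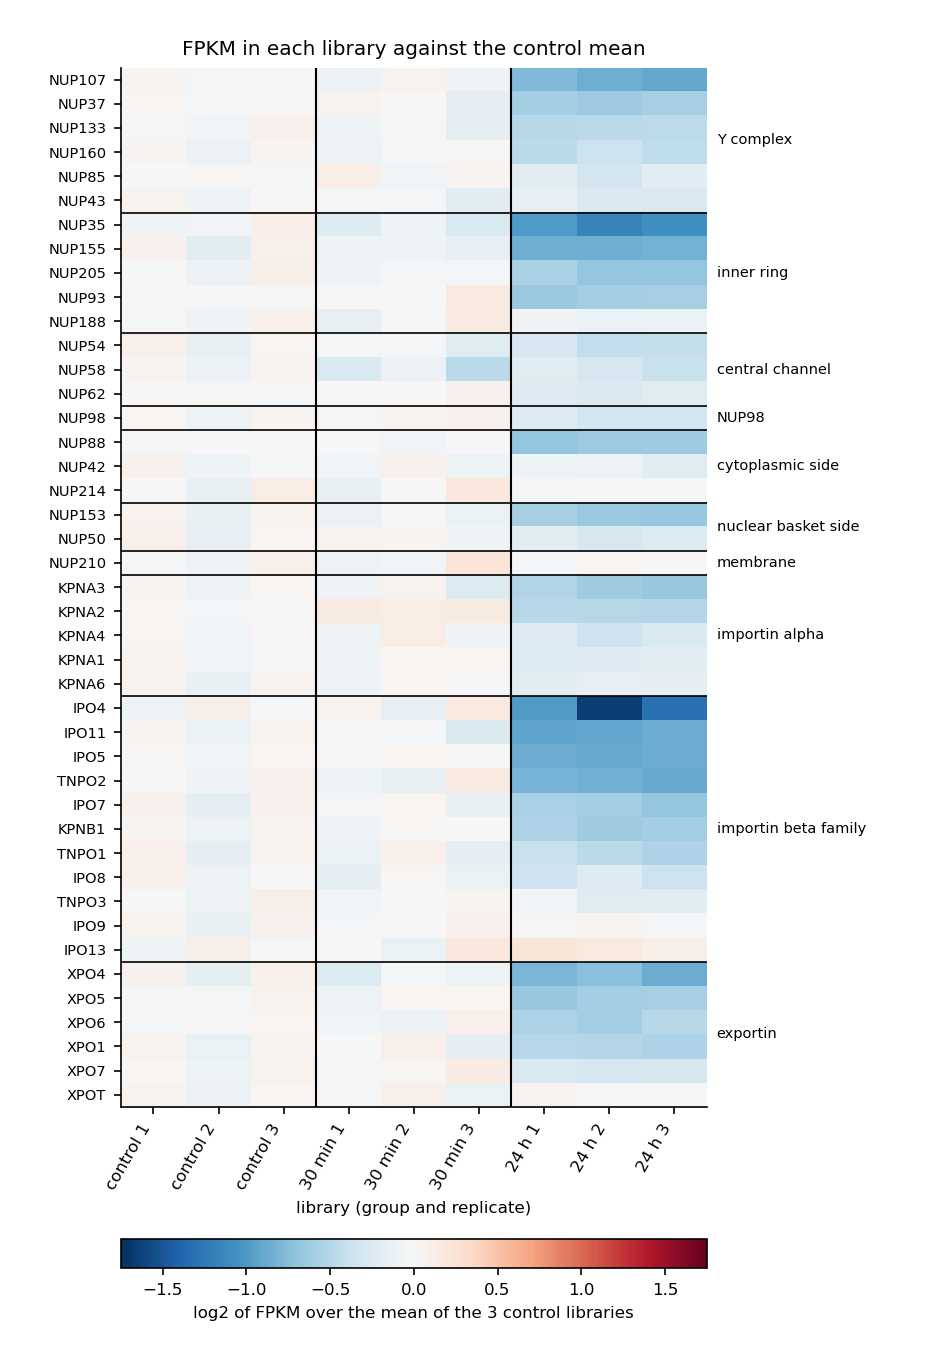
FPKM of each gene (rows, grouped by role) in each library (columns) as log2 of its ratio to the mean of the 3 control libraries. The 3 libraries at 24 h are blue in most rows, while rows such as NUP188, NUP210, NUP214, XPOT, IPO9 and IPO13 are pale or red there.

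The inner ring is the scaffold that lines the pore at the level of the membrane. In it 4 of 5 genes were down-regulated at 24 h, beside 11.2% of all genes tested. NUP188 was not (log2 fold change -0.14, SE 0.066, edgeR adjusted p 0.073). NUP35 (ENSG00000163002, chr2:183117513-183161680), which binds the membrane and other inner ring subunits, had FPKM values of 6.28, 6.34 and 7.12 in control, 5.61, 6.17 and 5.46 at 30 min and 3.32, 2.94 and 3.13 at 24 h. All 24 h libraries were below every other library (log2 fold change -1.11, SE 0.093, edgeR adjusted p 1.7e-09). NUP155 (ENSG00000113569, chr5:37288137-37371106), which links the ring to the membrane, went from 12.01, 10.06 and 12.11 in control to 6.32, 6.28 and 6.40 at 24 h. The groups were well apart, and the log2 fold change was -0.89 (SE 0.068, edgeR adjusted p 4.6e-10). NUP205 (ENSG00000155561, chr7:135557917-135648757), a large scaffold subunit, had 25.87, 24.19 and 28.04 in control and 17.56, 16.25 and 16.16 at 24 h (log2 fold change -0.68, SE 0.059, edgeR adjusted p 2.6e-09). NUP93 (ENSG00000102900, chr16:56730118-56850286), the hub that joins the inner ring subunits and the most abundant of them in control, had 30.93, 30.85 and 29.96 in control and 19.45, 20.15 and 20.45 at 24 h (log2 fold change -0.65, SE 0.059, edgeR adjusted p 5.2e-09). Control and 24 h libraries did not overlap for either gene. The ring's other large scaffold subunit, NUP188, had 25.68, 25.08 and 27.95 in control and 25.2, 24.3 and 24.1 at 24 h, with overlapping groups. It is also 1 of the 7 genes with an E-box, and is named here as the inner ring gene that did not pass.

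The Y complex forms the outer rings of the pore on both faces. Of the 6 genes counted for it here, all chosen by a NUP symbol, 2 (NUP107 and NUP37) were down-regulated. All 6 were lower by the adjusted p alone. Subunits without a NUP symbol are not in this count and are given below with the other pore subunits. There SEH1L (log2 fold change -0.79) and AHCTF1 (-0.77) were called lower, and SEC13 (0.04, edgeR adjusted p 0.63) was not. NUP107 (ENSG00000111581, chr12:68686951-68745809), in the stem of the Y, had FPKM values of 26.5, 25.3 and 25.1 in control, 24.0, 26.9 and 24.5 at 30 min and 14.9, 14.2 and 13.8 at 24 h. Control and 30 min libraries overlapped, and the 24 h libraries were far below both (log2 fold change -0.88, SE 0.060, edgeR adjusted p 7.3e-11). Its stem partner NUP133 (ENSG00000069248, chr1:229440259-229508341), the highest of these 6 in control, had 25.2, 24.9 and 26.9 in control and 18.4, 18.5 and 18.7 at 24 h. These groups did not overlap either, but the log2 fold change of -0.51 (SE 0.060, edgeR adjusted p 2.5e-07) was short of 1.5-fold. The log2 fold changes of the other 4 were -0.64 in NUP37, -0.47 in NUP160, -0.28 in NUP85 and -0.26 in NUP43. NUP43 shares exon positions with PCMT1 on the opposite strand, which had a mean FPKM of 72.8, and the strand setting of the counting is not given in the sources used here.

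The channel nucleoporins carry the FG repeats that form the permeability barrier. None of the 3, NUP54, NUP58 and NUP62, was called at 24 h, beside 11.2% of all genes tested called lower. All 3 were lower by the adjusted p alone, beside 31.7% of all genes tested. NUP62 (ENSG00000213024, chr19:49906825-49929764) had FPKM values of 46.2, 46.9 and 45.7 in control, 46.63, 46.34 and 48.95 at 30 min and 39.4, 38.9 and 40.0 at 24 h. The 24 h libraries lay below the others by a small margin (log2 fold change -0.27, SE 0.052, edgeR adjusted p 1.2e-04). NUP62 overlaps exons of ATF5 on the opposite strand, at a mean FPKM of 22.5. NUP98, whose transcript encodes the FG nucleoporin NUP98 and the Y complex subunit NUP96, had a log2 fold change of -0.34 and was not called.

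On the cytoplasmic face NUP88 was down-regulated and its partner NUP214 was not. NUP88 (ENSG00000108559, chr17:5359668-5420164), which anchors NUP214 to the pore, had FPKM values of 16.5, 16.9 and 16.9 in control, 16.7, 16.2 and 16.9 at 30 min and 10.4, 10.8 and 10.8 at 24 h. The 6 libraries of the first groups were nearly alike and the 24 h libraries were all lower (log2 fold change -0.70, SE 0.061, edgeR adjusted p 3.2e-09). RABEP1, with a mean FPKM of 14.6, shares exon positions with NUP88 on the opposite strand. NUP214, an FG nucleoporin that serves export, had 7.26, 6.68 and 8.01 in control and 7.15, 7.37 and 7.18 at 24 h, and these overlapped (log2 fold change -0.06, SE 0.075, edgeR adjusted p 0.54). NUP42, a docking site for mRNA export, was at -0.17 (edgeR adjusted p 0.045).

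On the nuclear basket side, NUP153 (ENSG00000124789, chr6:17615035-17706925), which tethers the basket and binds importins, had FPKM values of 25.5, 22.4 and 25.4 in control, 22.8, 24.2 and 22.5 at 30 min and 16.3, 15.5 and 15.4 at 24 h. Its 24 h libraries were below all others (log2 fold change -0.67, SE 0.061, edgeR adjusted p 5.2e-09). NUP153-AS1, an antisense RNA with a mean FPKM of 12.2, overlaps it, and reads from the pair cannot be told apart if strand was not used. NUP50, a basket cofactor of import and 1 of the genes with an E-box, was at -0.28 (edgeR adjusted p 0.0015) and was not called. The membrane nucleoporin NUP210, named as the highest of all 43 genes, had 156.9, 152.5 and 169.8 in control, 149.9, 153.8 and 185.5 at 30 min and 157.3, 163.5 and 158.7 at 24 h. Its groups overlapped throughout (log2 fold change -0.04 at 24 h, SE 0.065, edgeR adjusted p 0.62).

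Of the 11 importins of the beta family among the 43 genes 6 were down-regulated at 24 h, beside 11.2% of all genes tested. This group held the largest decrease of the 43. IPO4 (ENSG00000196497, chr14:24180219-24188869) had FPKM values of 2.37, 2.68 and 2.45 in control, 2.61, 2.26 and 2.81 at 30 min and 1.26, 0.80 and 1.01 at 24 h. It rested on 212 to 260 counts per control library and 82 to 130 at 24 h, the fewest of the 43 genes, and the groups still did not overlap (log2 fold change -1.33, SE 0.146, edgeR adjusted p 9.3e-08). The size ran from -0.80 with limma on log2(FPKM + 1) to -1.50 over the alternatives. IPO11 (ENSG00000086200, chr5:62403972-62628582), an importin for a ubiquitin-conjugating enzyme, had 7.02, 6.22 and 7.06 in control and 3.56, 3.61 and 3.71 at 24 h. All 24 h values were well under all control values (log2 fold change -0.94, SE 0.080, edgeR adjusted p 2.3e-09).

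IPO5 (ENSG00000065150, chr13:97953658-98024296), an importin for ribosomal proteins and core histones, had FPKM values of 75.5, 71.7 and 76.1 in control, 72.6, 76.4 and 73.8 at 30 min and 40.9, 40.5 and 40.9 at 24 h. The 24 h libraries had an SD of 0.208 FPKM and were far below the others, and the log2 fold change was -0.91 (SE 0.048, edgeR adjusted p 1.5e-12). TNPO2 (ENSG00000105576, chr19:12699201-12724011), a transportin for RNA-binding proteins, had 31.7, 30.6 and 33.5 in control and 18.2, 17.9 and 17.4 at 24 h. These did not overlap (log2 fold change -0.88, SE 0.067, edgeR adjusted p 4.1e-10), whereas its close relative TNPO1 was at -0.50 and not called. The difference between TNPO2 and TNPO1 was not tested.

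KPNB1 (ENSG00000108424, chr17:47649476-47685505), importin beta 1, had FPKM values of 83.2, 75.8 and 83.1 in control, 77.2, 81.9 and 80.7 at 30 min and 55.6, 52.7 and 53.7 at 24 h. The 24 h libraries lay well below the others, with a log2 fold change of -0.62 (SE 0.051, edgeR adjusted p 1.3e-09). The call rests close to the threshold. It was lost at -0.58 with library totals as the scaling and at -0.57 with a filter of mean FPKM over 5. With limma it was lost at -0.58 on log2(FPKM + 0.1) and at -0.57 on log2(FPKM + 1). IPO7, an importin for ribosomal proteins and 1 of the genes with an E-box, was also called (-0.65). The others were at -0.36 in IPO8, -0.19 in TNPO3, an importin for SR splicing factors, and -0.03 in IPO9 (edgeR adjusted p 0.70), and none was called.

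**Figure D4:**
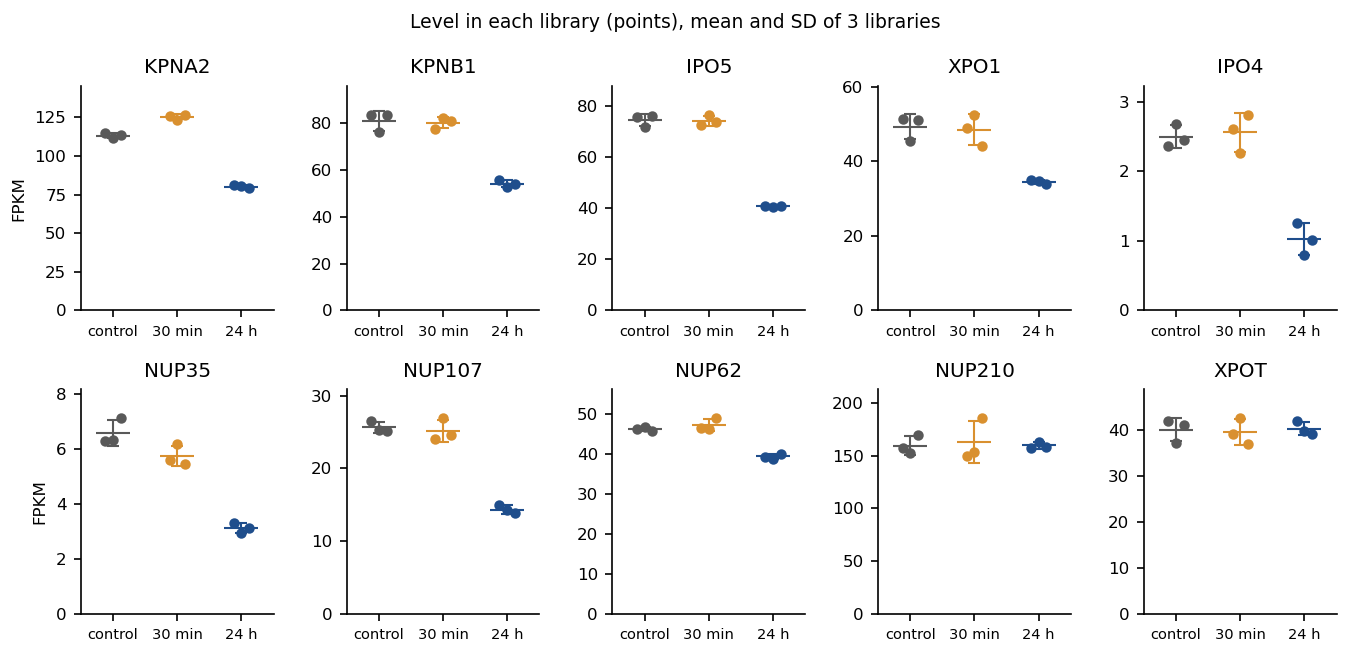
FPKM of 10 genes in each library (points) by group, with the mean and SD of 3 libraries; each axis starts at 0. KPNA2, KPNB1, IPO5, XPO1, IPO4, NUP35, NUP107 and NUP62 are lower in all 3 libraries at 24 h than in any control library, and NUP210 and XPOT overlap between groups.

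Of the importin alpha genes 1 of 5, KPNA3, was down-regulated at 24 h, beside 11.2% of all genes tested. All 5 were lower by the adjusted p alone, beside 31.7% of all genes tested. KPNA3 (ENSG00000102753, chr13:49699320-49792682) had FPKM values of 38.5, 34.9 and 37.8 in control, 35.4, 38.9 and 31.4 at 30 min and 25.7, 24.0 and 23.5 at 24 h. All 24 h libraries were below the others, though the 30 min libraries were spread (log2 fold change -0.64, SE 0.069, edgeR adjusted p 5.8e-08). KPNA2 (ENSG00000182481, chr17:68035636-68047364), which cycling cells express highly, had 81.2, 80.4 and 79.0 at 24 h against the control values given above. This was lower in every library (log2 fold change -0.54, SE 0.049, edgeR adjusted p 6.3e-09) but short of 1.5-fold. KPNA4, KPNA1 and KPNA6 had smaller log2 fold changes of -0.32 (SE 0.066), -0.26 (SE 0.061) and -0.20 (SE 0.062). Their 24 h libraries were all below their control libraries, which ranged from 11.02 to 11.72 FPKM in KPNA4, 9.78 to 10.5 in KPNA1 and 10.9 to 12.4 in KPNA6. Processed pseudogenes and other non-coding genes with a member's symbol stem, 13 in all, were left out, and how reads that map to several places were counted is not given in the sources used here.

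Within the summed FPKM of the 7 importin alpha genes, KPNA2 was the largest part throughout. Its share was 60.8%, 62.2% and 60.9% in the control libraries, 65.0%, 62.3% and 66.0% at 30 min and 59.5%, 60.1% and 59.7% at 24 h. The 30 min libraries were above those of control and the 24 h libraries below them, in the first case by a narrow margin for a library of each group. KPNA3 went from a mean share of 20.1% in control to 18.2% at 24 h, while KPNA1 went from 5.49% to 6.48%, KPNA4 from 6.19% to 6.997% and KPNA6 from 6.44% to 7.91%. No test was made on these shares. In raw counts, which are not per length, KPNA2 held 43.8% in control, 47.0% at 30 min and 41.3% at 24 h.

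Of the exportins chosen by symbol 2 of 6 were down-regulated at 24 h. The exportin CSE1L is not in this count and is given below with the Ran cycle genes. XPO4 (ENSG00000132953, chr13:20777329-20903048), which exports eIF5A and SMAD3, had FPKM values of 11.3, 9.62 and 11.5 in control, 9.18, 10.7 and 10.1 at 30 min and 6.19, 6.51 and 5.93 at 24 h. The 24 h libraries were below all the others (log2 fold change -0.84, SE 0.071, edgeR adjusted p 2.1e-09). XPO5 (ENSG00000124571, chr6:43522334-43576038), the exportin of microRNA precursors, had 27.2, 26.9 and 28.7 in control and 17.4, 18.3 and 18.4 at 24 h. Its groups did not overlap (log2 fold change -0.65, SE 0.055, edgeR adjusted p 1.9e-09), and POLR1C, at a mean FPKM of 22.3, overlaps its exons on the opposite strand.

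XPO1 (ENSG00000082898, chr2:61476032-61538741) had FPKM values of 51.4, 45.5 and 51.0 in control, 48.9, 52.4 and 44.2 at 30 min and 34.9, 34.7 and 34.0 at 24 h. It was lower in all 24 h libraries, with a log2 fold change of -0.55 (SE 0.060, edgeR adjusted p 7.1e-08) that missed 1.5-fold. Without control replicate 2, the lowest control library for this gene, the log2 fold change was -0.60 and XPO1 was called. XPO6 was at -0.58 and XPO7 at -0.31, and neither was called. XPOT, the exportin of tRNA, was the 1 of these 6 exportins that did not pass the adjusted p. Its FPKM was 41.9, 37.3 and 41.1 in control and 41.9, 39.8 and 39.2 at 24 h, and the groups overlapped (log2 fold change -0.03, SE 0.059, edgeR adjusted p 0.64).

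An E-box was in the promoter window of 7 of 39 genes with an entry (17.9%), beside 8.77% of 27305 genes not filtered by FPKM or gene type. Of these 7, 4 (IPO4, TNPO2, IPO7 and KPNA3) were among the 16 called lower with a promoter entry. The other 3 (XPO1, NUP50 and NUP188) were among the 23 others. Whether the E-box and the call go together was not tested. Every E-box of these 7 genes lay before the start, so a search of only the 250 bases before it could not change these counts. Across the 43 genes Spearman's rho of mean FPKM over 9 libraries with the log2 fold change was 0.091. The points share the same 9 libraries and are not independent. The mean also includes the control and 24 h libraries that give the fold change, so the mean and the fold change are linked by construction. Of the 21 genes with the higher mean FPKM 10 were called, and of the 22 with the lower mean 7 were.

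Cells at 24 h were also compared directly with cells at 30 min. Of the 43 genes 19 were lower and 0 higher by the same rule, beside 11.5% and 15.0% of all genes tested. They were the 17 genes called against control with KPNA2 (log2 fold change -0.72, SE 0.049, edgeR adjusted p 7.8e-11) and XPO6 (-0.59, SE 0.058, edgeR adjusted p 1.9e-08). The 24 h libraries are shared by both comparisons, so the calls are not independent. The median log2 fold change was -0.47, and -0.40 with library totals as the scaling.

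Genes that work with the pore were read from a list of other pore subunits, genes of the Ran cycle with transport cofactors, and mRNA export genes. Of 44 tested, 12 (27.3%) were called lower at 24 h against control and none was called higher. Over all genes tested these shares were 11.2% and 14.7%. The median log2 fold change was -0.34, beside 0.01 over all genes tested. By the adjusted p alone 30 were lower and 4 higher, beside 31.7% and 31.6% of all genes tested. At 30 min 0 were called by edgeR at 1.5-fold, beside 0.529% of all genes lower and 0.118% higher. At an unadjusted p below 0.05 there were 5, beside 11.6% of all genes tested. RANBP17 was listed at 0 and POM121C was not matched by identifier.

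**Figure D5:**
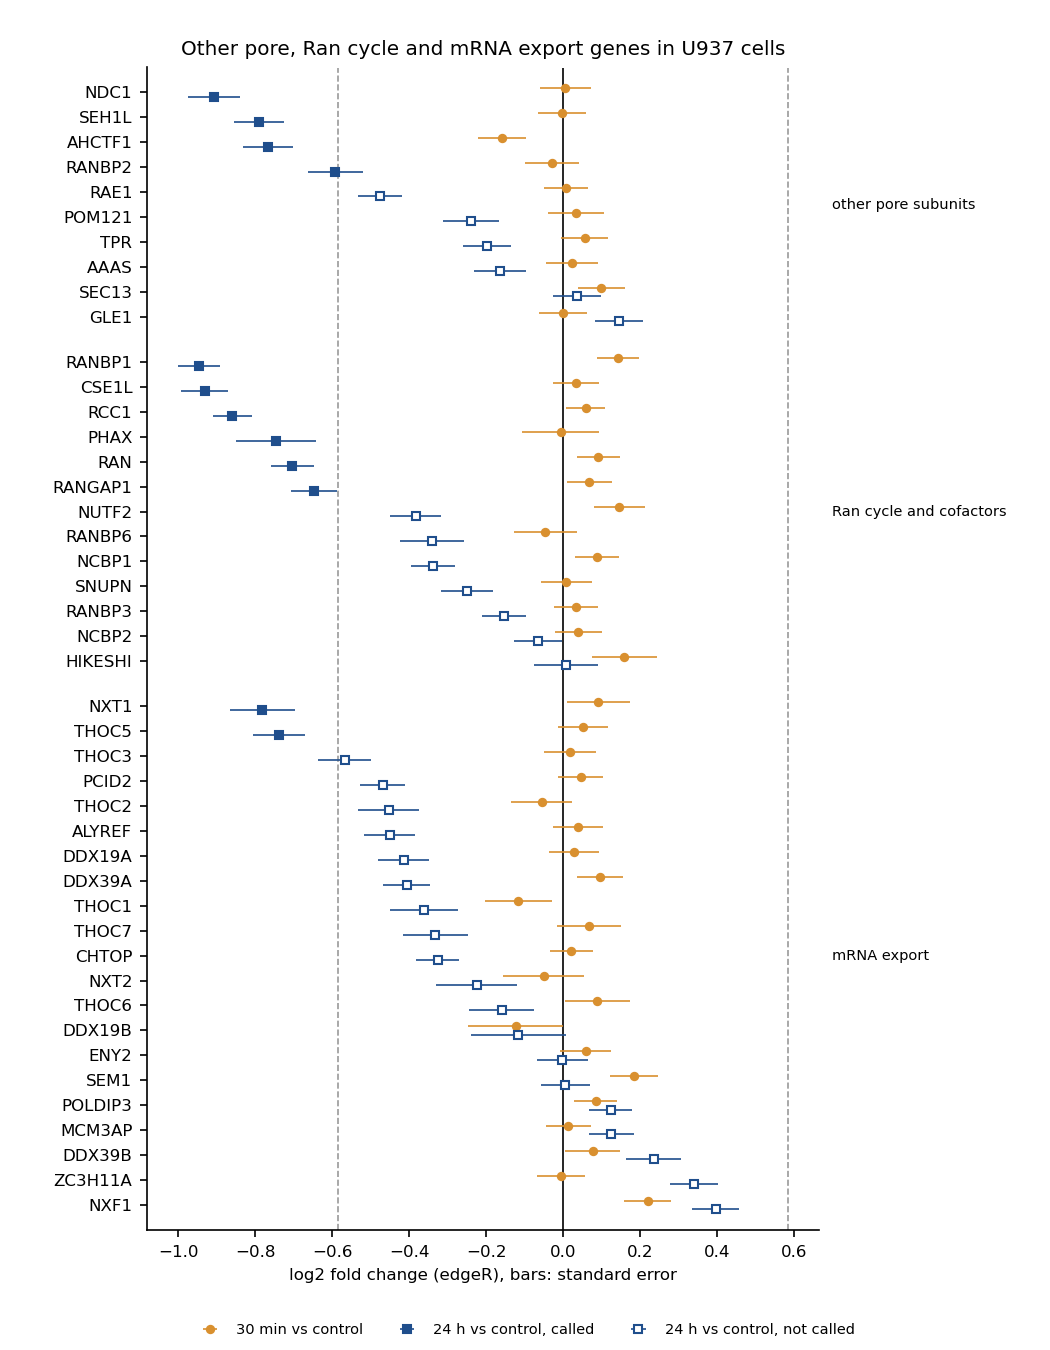
Log2 fold change against control at 30 min (orange circles) and 24 h (blue squares, filled where called) of 44 other pore subunits, Ran cycle and mRNA export genes, with bars of 1 standard error. At 24 h RANBP1, CSE1L, RCC1, RAN and RANGAP1, of the Ran cycle and cofactor list, lie left of the dashed 1.5-fold line. NXF1, at 0.40, is furthest to the right.

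Of 13 genes of the Ran cycle and transport cofactors 6 were down-regulated at 24 h, beside 11.2% of all genes tested. RAN (ENSG00000132341), the GTPase itself, had FPKM values of 133.8, 144.0 and 133.5 in control, 147.1, 138.6 and 142.7 at 30 min and 84.6, 84.2 and 90.9 at 24 h. All 24 h libraries were below all others (log2 fold change -0.70, SE 0.056, edgeR adjusted p 8.2e-10). RCC1, the exchange factor that loads Ran with GTP, was at -0.86 (SE 0.051), RANGAP1, which triggers GTP hydrolysis, at -0.65 (SE 0.059) and RANBP1, which assists it, at -0.95 (SE 0.055). CSE1L, the exportin that returns importin alpha to the cytoplasm, had 99.99, 91.67 and 96.52 in control and 52.2, 52.8 and 50.4 at 24 h. Its log2 fold change was -0.93 (SE 0.061, edgeR adjusted p 3.7e-11), larger in size than that of any importin alpha gene, and the difference was not tested. RCC1 shares exon positions with SNHG3 on the same strand (mean FPKM 30.7) and RANBP1 with TRMT2A on the opposite strand (17.2). PHAX, an adaptor for snRNA export, was the remaining called gene at -0.75.

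Of 10 other pore subunits 4 were down-regulated at 24 h, beside 11.2% of all genes tested. NDC1, which anchors the pore in the membrane, had FPKM values of 39.4, 34.7 and 36.5 in control and 20.2, 20.2 and 20.1 at 24 h. The 24 h libraries were nearly alike and far below control (log2 fold change -0.91, SE 0.068, edgeR adjusted p 2.9e-10). SEH1L, a Y complex subunit, was at -0.79 (SE 0.064) and AHCTF1, which seeds pores on chromatin, at -0.77 (SE 0.064). RANBP2, the filament protein of the cytoplasmic face, was just over the threshold at -0.59 (SE 0.070). It lost its call without control replicate 1 (-0.54), control replicate 3 (-0.57) or 24 h replicate 3 (-0.57). It also lost it with a filter of mean FPKM over 5 (-0.54), library totals (-0.55) and limma on log2(FPKM + 0.1) (-0.55) or log2(FPKM + 1) (-0.52), and it has near-identical relatives in the genome. TPR, the basket filament, had a log2 fold change of -0.20 (SE 0.062, edgeR adjusted p 0.0081). SEC13 was at 0.04 (SE 0.061, edgeR adjusted p 0.63), and its groups overlapped.

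Of 21 mRNA export genes 2 (9.52%), NXT1 and THOC5, were down-regulated, close to the 11.2% of all genes tested called lower. NXF1, the main mRNA export receptor, had FPKM values of 15.9, 16.1 and 16.1 in control, 18.1, 17.1 and 19.6 at 30 min and 21.71, 22.02 and 21.27 at 24 h. The 3 groups did not overlap, and the 24 h libraries were highest (log2 fold change 0.40, SE 0.061, edgeR adjusted p 8.8e-06), short of 1.5-fold. Its cofactor NXT1 had 69.0, 75.0 and 64.4 in control and 39.1, 39.4 and 46.2 at 24 h, which did not overlap (log2 fold change -0.78, SE 0.084, edgeR adjusted p 6.2e-08). THOC5, a subunit of the THO complex, was at -0.74. The other genes higher by the adjusted p alone were ZC3H11A (0.34), DDX39B (0.24) and GLE1 (0.14), and GLE1 is counted with the pore subunits.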

How the data were processed

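RNA-seq was performed on 9 U937 libraries, 3 per group. The libraries of the other cell lines were not used here. Per the labels, total RNA was extracted with TRIzol and libraries were built with the VAHTS mRNA-seq V3 kit. The submitters' processing notes name cutadapt 1.9.1, HISAT2 2.0.1, HTSeq 0.6.1 and GRCh37, whereas the paper's methods name hg38, and which build the table rests on was not settled. The authors deposited the unnormalized HTSeq count of each gene and its rounded FPKM, and used DESeq2 for their own calls. The annotation release is not given in the sources used here. The culture time of the control is not named, so time in culture and 24 h of matrine cannot be told apart.

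Of 57905 identifiers 51996 were matched to a GENCODE 44 symbol, whose GRCh38 coordinates are printed. Counts were tested with edgeR 4.0.16 (R 4.3.3) by the quasi-likelihood test with TMM scaling on all 9 libraries, and p-values were adjusted by Benjamini-Hochberg over all 11899 genes. Each standard error was computed as the size of the log2 change divided by the square root of F. Simulated counts with known changes were used to test the scripts. No pair of libraries within a group was within sampling noise of each other (chi-square per gene 2.14 to 11.9). Both treatment comparisons share the 3 control libraries.

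The genes and lists were chosen with earlier results of these data known. Genes given in full were, by rule, the 12 largest called changes at 24 h with groups that do not overlap, the highest control level in each role group of 3 or more genes, the importin alpha genes, XPO1 and KPNB1. Of the related genes they were RAN, RCC1, RANGAP1, RANBP1, CSE1L, NXF1, RANBP2, TPR and the 6 largest called changes. Other genes were named after their values were seen. Alternatives changed the filter, the scaling, the tool (DESeq2 1.42.0, or limma 3.58.1 on log2(FPKM + 0.1) and log2(FPKM + 1)) or the fold threshold, added a replicate block, fitted 6 libraries, or omitted 1 library at a time. The promoter window was an alternative added after seeing the data.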

Additional observations from a re-analysis of the deposited data

Results flagged for a closer look

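Levels at 24 h and at 30 min of matrine differed by a direct test, edgeR's quasi-likelihood test of 24 h against 30 min with Benjamini-Hochberg adjustment. Control libraries carry no time of culture in the labels, so time in culture and time of treatment cannot be told apart. Of the 43 pore, importin and exportin genes, 19 were called lower and 0 higher in this test, beside 11.5% and 15.0% of all genes tested. Each value that follows is a log2 fold change of 24 h against 30 min. It was -1.39 in IPO4, -0.95 in NUP35, -0.87 in IPO11, -0.94 in IPO5, -0.82 in NUP155, -0.90 in TNPO2, -0.88 in NUP107 and -0.76 in XPO4. It was -0.72 in NUP88, -0.67 in NUP205, -0.63 in NUP153, -0.68 in XPO5, -0.74 in NUP93 and -0.64 in KPNB1. Among importin alpha genes it was -0.72 in KPNA2 and -0.60 in KPNA3, and the KPNA3 call was lost without 30 min replicate 2 (-0.53) or 24 h replicate 3 (-0.57). KPNA3, KPNB1 and NUP153 also lost their calls with a filter of mean FPKM over 5 (-0.52, -0.56 and -0.55), library totals (-0.53, -0.56 and -0.55), limma on log2(FPKM + 0.1) (-0.52, -0.57 and -0.56) and limma on log2(FPKM + 1) (-0.51, -0.56 and -0.53). With limma on log2(FPKM + 1) the calls of NUP205 (-0.57) and XPO5 (-0.58) were lost as well. Of the related genes the value was -0.79 in RAN, -0.92 in RCC1, -0.72 in RANGAP1, -1.09 in RANBP1, -0.96 in CSE1L, -0.91 in NDC1, -0.79 in SEH1L and -0.87 in NXT1.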

How the results depend on the processing

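With 3 libraries per group, all calls rest on a spread pooled across genes, and genes near the 1.5-fold line move across it. No called value changed sign, but at 30 min 19 of 33 named genes, none called, and the median of the 43 genes (0.02, and -0.02 with library totals) changed sign under some alternative. Of the 43 genes, those called lower at 24 h against control numbered 17, 37 with the adjusted p alone and 2 at 2-fold or more, and 13 to 20 under the other filters, scalings and tools. Of all genes tested 11.2% were lower, and 31.7% with the adjusted p alone. Under those other filters, scalings and tools the share ran from 7.56% to 11.6%. The share of all genes tested at 2-fold was not computed, here or for the counts that follow. Of the 43 genes, those called lower at 24 h against 30 min numbered 19, 12 with a filter of mean FPKM over 5, 11 with limma on log2(FPKM + 1), 37 with the adjusted p alone and 1 at 2-fold. The shares of all genes tested were 11.5%, 10.8% with that filter and 6.91% with limma on log2(FPKM + 1). With the adjusted p alone 3867 of 11899 were lower. Of the related genes at 24 h against control, 30 were lower and 4 higher with the adjusted p alone and 0 were lower at 2-fold, and against 30 min 32 were lower and 3 higher with the adjusted p alone and 1 was lower at 2-fold. The median log2 fold change of 24 h against 30 min was -0.40 with library totals in place of -0.47. Leaving out each library in turn gave 17 to 18 genes lower at 24 h against control and 18 to 19 against 30 min. Of all genes tested 10.85% to 11.4% were then lower against control and 11.1% to 11.8% against 30 min. The same omissions gave 12 related genes lower against control and 11 to 13 against 30 min. The median of the 43 genes then ran from -0.52 to -0.46 against control and from -0.52 to -0.43 against 30 min. Of 33 named genes, 3 (KPNB1, KPNA3 and RANBP2) lost and 2 (XPO1 and KPNA2) gained a call at 24 h against control under some alternative, and 5 lost and 2 (XPO1 and RANBP2) gained one against 30 min. The replicate block left 17 genes lower at 24 h against control, 19 against 30 min and 0 at 30 min, and 12 related genes at 24 h. Libraries that share a number did not deviate together (correlations -0.16 to 0.10), so the numbers were not taken as pairs.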
